A study of Mus musculus with 12 samples.

Results

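The cytosolic ribosome is built from a large and a small subunit, each made of ribosomal RNA and a set of proteins that the cell needs in matched amounts. The mRNAs of these proteins are short, abundant and stable. They open with a terminal oligopyrimidine (TOP) stretch, a C followed by a run of C and T directly at the transcription start, through which the kinase complex mTORC1 and the RNA-binding protein LARP1 govern their translation. Macrophages respond to bacterial products by rewriting much of their mRNA pool while they make large amounts of secreted protein, so the abundance of the translation machinery itself bears on what these cells can produce.

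The 76 genes described here encode cytosolic ribosomal proteins. They are the protein-coding mouse genes whose symbol is Rpl or Rps with a number and at most one of the letters a, l or x, together with Rplp0, Rplp1, Rplp2 and Rpsa, and which held at least 1000 reads over the 12 libraries. Of 47937 genes in the table, 80 carried such a symbol and 76 of these reached the read minimum, 45 of the large (Rpl) and 31 of the small (Rps) subunit. Below the limit lay Rpl10l with 0 reads, Rpl39l with 10, Rpl3l with 14 and Rpl24 with 643, a count that is not read here as low expression, and the members with the fewest reads, all well above the limit, were Rps27l with 4496, Rpl27 with 4822 and Rpl36a with 5544. The rule used only names and summed reads, not the differences between groups. All 76 genes also passed the filter on low counts that left 11760 genes for testing.

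Bone marrow cells of C57BL/6 mice aged 6 to 8 weeks had been grown for 7 days with 20 ng/ml of the growth factor CSF-1 into bone marrow-derived macrophages. All groups share this background, and no group carries a genetic change. The 4 groups of 3 libraries each are unstimulated cells (M0), cells given 50 ng/ml IFNγ and 20 ng/ml LPS over 18 h (IFNγ + LPS), M0 macrophages given 50 μM T863, an inhibitor of the triacylglycerol-forming enzyme DGAT1 (M0 + DGAT1i), and stimulated macrophages given the same inhibitor (IFNγ + LPS + DGAT1i). DGAT1 function was thus changed by a single compound at a single dose, and the labels name no vehicle for the untreated groups. The labels do not say that replicates came from separate mice or cultures, so p-values measure the spread between these libraries, which may be technical.

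Each library held 4996014 to 6621671 reads assigned to genes. All 9 macrophage markers looked at, among them Adgre1, Csf1r and Cd68, were detected in every library, and erythroid markers were at 0 reads throughout. The summed level of 8 neutrophil and granulocyte precursor markers was 31.5 to 38.6 CPM (reads scaled to a common library size) in M0, 15.1 to 25.4 in IFNγ + LPS, 22.8 to 29.0 in M0 + DGAT1i and 62.9 to 80.9 in IFNγ + LPS + DGAT1i, with Ly6g at 0 in all libraries. For 5 dendritic cell markers, the sum was 0.13 to 0.83 CPM in M0 and 8.04 to 11.1 CPM in IFNγ + LPS. In bulk RNA such as this, fewer cells of a type and less RNA per cell cannot be told apart.

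Because the TOP stretch lies at the start of the mRNA, the bases around the annotated start of transcription are shown for the members whose levels the comparisons below turn on. The RefSeq promoter table (GRCm38.p6) held an entry for 56 of the 76 members. Each line gives 15 bases before and 15 bases from the start on, 5′ to 3′ on the gene's own strand, and capitals mark the longest run of C and T, wherever it lies in the window.

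Of the 6 members that were more than 2-fold lower in IFNγ + LPS, Rpl3 has no entry, and the others were Rpl10a at chr17:28328456-28328485 (+), Rpl12 at chr2:32961697-32961726 (+), Rpl36a at chrX:134585639-134585668 (+), Rps18 at chr17:33955651-33955680 (-) and Rpsa at chr9:120127751-120127780 (+), the sign in parentheses giving the strand.
Rpl10a: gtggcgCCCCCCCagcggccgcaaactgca
Rpl12: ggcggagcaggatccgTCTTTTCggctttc
Rpl36a: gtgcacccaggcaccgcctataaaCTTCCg
Rps18: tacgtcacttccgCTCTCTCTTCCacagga
Rpsa: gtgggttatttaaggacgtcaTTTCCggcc

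The members with an entry that rose or did not pass the test in the same comparison were Rps24 at chr14:24490663-24490692 (+), Rpl15 at chr14:18270972-18271001 (-), Rpl19 at chr11:98026695-98026724 (+) and Rpl41 at chr10:128549154-128549183 (-).
Rps24: cccgcgctggggTCCTTCCTTgcgcgttga
Rpl15: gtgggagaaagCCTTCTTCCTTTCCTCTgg
Rpl19: tgaccaaacgCCCTCactgcgcatgtgcgc
Rpl41: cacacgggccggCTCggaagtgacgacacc

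The members described below for their response to DGAT1i were Rps15a at chr7:118116133-118116162 (-), Rplp2 at chr7:141447636-141447665 (+) and Rpl4 at chr9:64173372-64173401 (+), and the related pair Rps27 at chr3:90213634-90213663 (-) and Rps27l at chr9:66946071-66946100 (+) is shown with them.
Rps15a: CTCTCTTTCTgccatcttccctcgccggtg
Rplp2: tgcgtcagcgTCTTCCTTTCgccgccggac
Rpl4: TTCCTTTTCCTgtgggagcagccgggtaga
Rps27: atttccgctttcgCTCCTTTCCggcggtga
Rps27l: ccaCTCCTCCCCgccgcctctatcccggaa

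The longest pyrimidine run was 7 bases in Rpl10a and Rpl12, 5 in Rpl36a and Rpsa and 11 in Rps18, and it was 9 bases in Rps24, 17 in Rpl15, 5 in Rpl19 and 3 in Rpl41, so that the lengths overlap between these sets. Of the 14 members shown, the marked run covers the annotated start, the 16th base of the line, only in Rps18, Rps24, Rpl15, Rplp2 and Rps27. Elsewhere the marked run lies off that start and is not the TOP stretch as defined above. A C at the start followed by at least 4 C or T stands in Rps18, Rpl15, Rplp2 and Rps27. Rps15a has one too, outside its marked run, whereas the start of Rps24 is a T. Over the 56 members the longest run covered the annotated start in 17, 30.4% against 11.2% of all genes, and a C at the start followed by at least 4 C or T was found in 12, 21.4% against 2.49%. A run of at least 7 C or T was present in 29 of the 56 members, 51.8%, against 18.5% of 27025 genes with a promoter entry, and the median longest run was 7 bases in the members and 4 in all promoters. The letters CTTTCC stood in the window of 8 members, 14.3%, against 1.39% of all genes. In the 300-base promoters, read on both strands, CCGGAAG, letters typical of sites for ETS-family factors such as GABP, was present in 41.1% of the members and in 9.12% of all genes. The corresponding shares were 7.14% and 2.88% for AAGATGGC, the core of the YY1 motif, 8.93% and 7.24% for CACGTG, the E-box bound by Myc and its partners, and 8.93% and 14.2% for TATAAA. The median log2 fold change in IFNγ + LPS was -0.58 in the 29 members with a pyrimidine run of this length and -0.62 in the other members with an entry. These are matches of letters within fixed windows and say nothing of binding.

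In resting macrophages the 76 genes took 2.31% ± 0.060 (SD, n = 3) of all reads. The members that collected the most reads over the 12 libraries, a ranking that transcript length affects, were Rplp0, the core protein of the ribosomal stalk that recruits translation factors, Rpl4, which lines the tunnel through which the new peptide leaves, Rplp1, a stalk protein bound to Rplp0, Rpsa, the small subunit protein also known as the laminin receptor, and Rps2. Their mean levels in M0 were 660.2 ± 2.93, 634 ± 15.5, 521 ± 10.0, 529 ± 10.6 and 448 ± 18.7 CPM (SD, n = 3). Because long transcripts collect more reads, levels of different genes were set side by side per kilobase of annotated transcript, averaged over the 12 libraries. On that scale the members ranged from 52.3 CPM per kb for Rps20 to 904 for Rplp1, with a median of 270.0, and Rplp1 was followed by Rps28 with 686 and Rpl41 with 647 CPM per kb. The low place of Rps20 rests on the long annotated transcript taken for it. Its mean level was 194 CPM, above the 59.9 CPM of Rps27l. Copies elsewhere in the genome can take reads from a gene, depending on the counting. Of the 76 members, 74 share at least 100 bases at 95% identity or more with another annotated gene, and 62 of them do so over at least 50% of their transcript. Rps2, for example, has such copies in 32 other genes. Only pseudogenes whose own symbol names a ribosomal protein were counted, and copies under other names were left out. The 158 of these named pseudogenes that held a read together held 4133 reads, 0.335% of the members' 1232383.

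IFNγ + LPS lowered the mRNAs of nearly all ribosomal proteins, of both subunits, against the rest of the transcriptome. The share of reads in the 76 genes was 2.27%, 2.38% and 2.29% in the M0 libraries and 1.16%, 1.09% and 1.10% in the IFNγ + LPS libraries, so that the stimulated libraries all lay below the resting ones and their mean share was 0.482 of that in M0. The large subunit members went from 1.36% ± 0.038 to 0.647% ± 0.018 of all reads and the small subunit members from 0.955% ± 0.022 to 0.467% ± 0.019 (SD, n = 3). The pseudogenes named after ribosomal proteins, which held 0.00792% ± 0.00040 of reads in M0 and 0.00362% ± 0.00020 in IFNγ + LPS (SD, n = 3), moved by a like ratio of 0.457.

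The size of this fall depends on what the reads are set against. The members' share is relative to all reads, whereas gene-wise tests used edgeR's trimmed mean of M-values (TMM), which takes the bulk of the genes as unchanged. The mean TMM factor was 1.19 over the M0 libraries, against 0.860 with IFNγ + LPS. After TMM, the summed level of the members was 19433 ± 524 CPM in M0 and 12961 ± 395 CPM in IFNγ + LPS (SD, n = 3), a ratio of 0.667. Scaled by library size alone, the median of the 11760 genes tested fell by 0.46 on the log2 scale and the median member by 1.05. The distance between the median member and the median gene, which a scaling of whole libraries leaves nearly as it is, was -0.59 on the log2 scale, and -0.63 after a correction for transcript length and GC content.

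**Figure D1:**
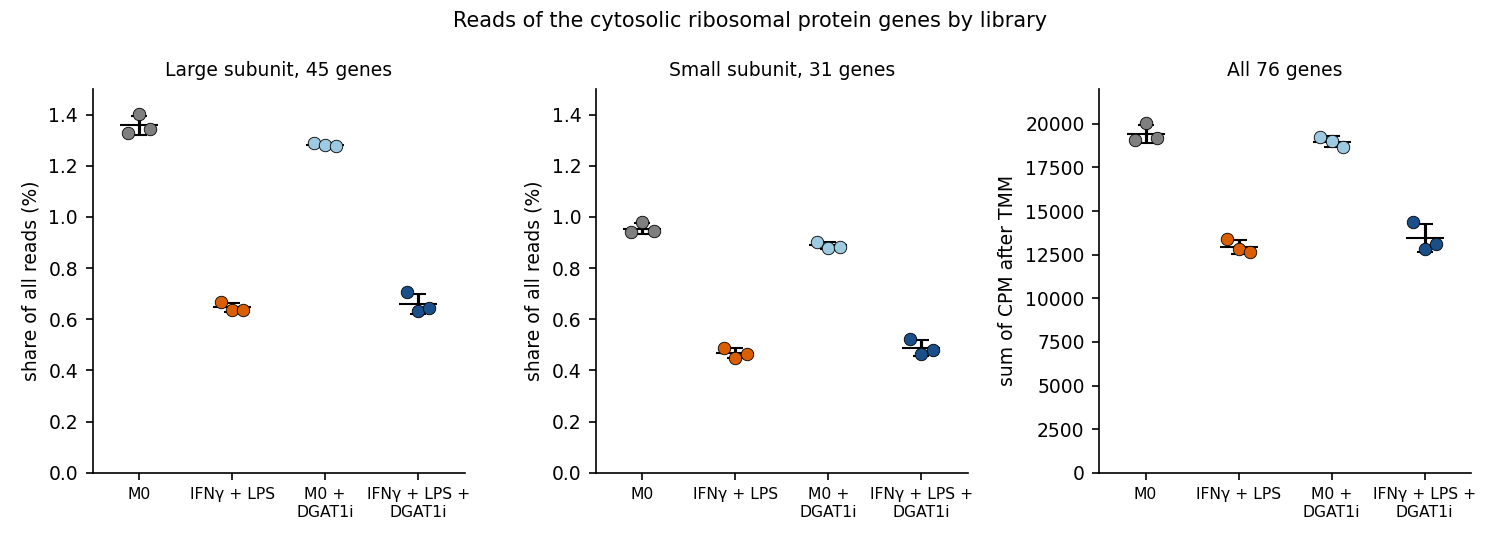
Reads of the 76 ribosomal protein genes in the 12 libraries. The left and middle panels give the share of all reads (%) in the 45 large and 31 small subunit genes and the right panel the sum of their CPM after TMM, with points for libraries and bars for the mean and SD of 3 libraries; in all panels the 6 libraries with IFNγ + LPS lie below the 6 without it, while the IFNγ + LPS libraries with and without DGAT1i overlap.

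Tested gene by gene, 71 of the 76 members were lower and 1 was higher in IFNγ + LPS than in M0, by edgeR's quasi-likelihood test at a Benjamini-Hochberg adjusted p under 0.05. Stimulation changed most of the transcriptome, 8616 of 11760 genes (73.3%), in near-equal numbers up and down by TMM, and 36.2% of all genes were lower against 93.4% of the members. Scaled by library size alone 19.9% of all genes were higher and 59.5% lower, against 98.7% of the members lower. The median member had a log2 fold change of -0.58, a fold of 0.669, whereas the median of all genes tested was 0.0063. The direction holds relative to the bulk of the genes, since on a scale that sets the summed reads of the 76 members equal in all libraries 24 members were lower, 15 were higher and the median member stood at 0.0059. These are 31.6% and 19.7% of the members, against 18.01% of all genes lower and 62.2% higher on that scale. The groups did not overlap in 71 members, 70 lower and 1 higher, where 75.3% of all genes did not overlap, 37.1% lower and 38.2% higher. All 31 small subunit members passed the test, and the medians were -0.62 for the small and -0.56 for the large subunit. For 63 of the 76 members the log2 fold change lay between -1 and -0.25. Of the 72 calls, 70 were also made, in the same direction, in every leave-one-out fit and under every other alternative tried at this threshold except the scale of the members' own sum. The other 2 were Rps24 and Rps27.

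**Figure D2:**
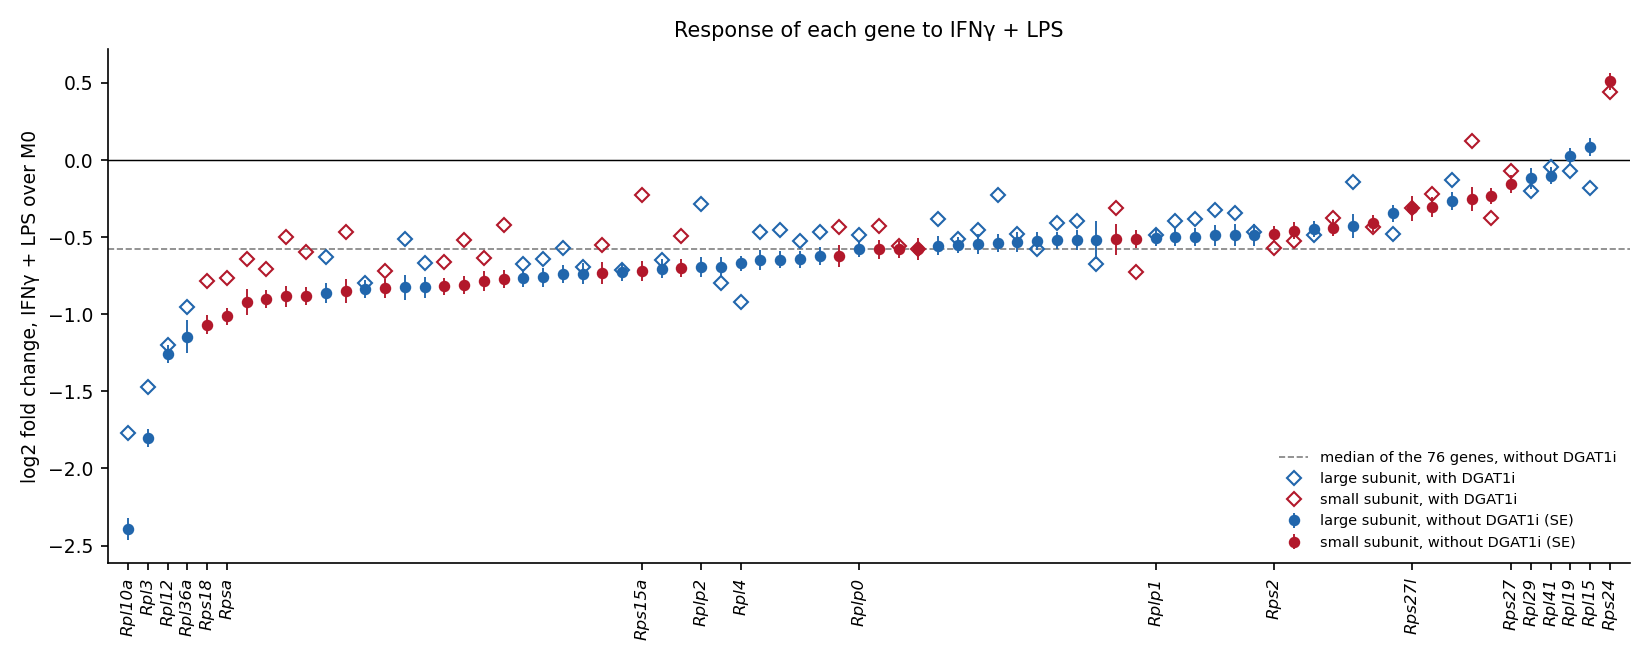
Log2 fold change by IFNγ + LPS (vertical axis) of each of the 76 genes (horizontal axis, ordered by the change without DGAT1i, with symbols for some of the genes named in the text). Filled circles with SE bars give IFNγ + LPS over M0, open diamonds the same change with DGAT1i in both arms, blue the large and red the small subunit, and the dashed line the median of -0.58; Rpl10a and Rpl3 lie below all other members and Rps24 above them in both series.

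The fall was not even across the members, and the 3 largest decreases were all in large subunit proteins. Rpl10a (ENSMUSG00000037805.14, GRCm38 chr17:28328471-28331033, plus strand) encodes the protein of the L1 stalk, which moves with the tRNA as it leaves the ribosome. Its levels were 199, 205 and 183 CPM in the M0 libraries and 41.4, 37.0 and 33.8 CPM in IFNγ + LPS. No stimulated library came near a resting one, and the level was 5.24-fold lower (log2 fold change -2.39 ± 0.071 SE, edgeR adjusted p = 4.1e-36).

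Rpl3 (ENSMUSG00000060036.13, chr15:80077791-80091868, minus strand), which is added early in assembly and reaches toward the peptidyl transferase centre, followed. It measured 408, 446 and 406 CPM in M0 and 126, 123 and 113 CPM in IFNγ + LPS. This was a 3.49-fold lower level, again without overlap (log2 fold change -1.80 ± 0.057 SE, edgeR adjusted p = 9.7e-35). Rpl12 (ENSMUSG00000038900.17, chr2:32961559-32965345, plus strand), which sits at the base of the stalk, measured 287, 303 and 296 CPM in M0 and 125, 118 and 128 CPM in IFNγ + LPS, 2.39-fold lower (log2 fold change -1.26 ± 0.060 SE, edgeR adjusted p = 2.9e-26). Mammalian RPL3 and RPL12 are known to control their own mRNAs through alternative splicing. Reads were counted per gene here, so isoforms were not separated. Exons of Rpl10a, Rpl12, Rps18 and Rps2 also overlap those of CT025652.2, Lrsam1, Vps52 and Snhg9 on the opposite strand. The sources differ on whether the library kit kept strand, so the counts of these genes are uncertain. In all, exons of 20 members overlap those of another gene, among them Rpl19 with Gm11629 on the same strand.

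Of the small subunit, Rps18 and Rpsa had the largest decreases. Rpsa (ENSMUSG00000032518.5, chr9:120127689-120132369, plus strand) measured 517, 531 and 538 CPM in M0 and 274, 267 and 244 CPM in IFNγ + LPS, 2.02-fold lower (log2 fold change -1.01 ± 0.054 SE, edgeR adjusted p = 2.3e-24). Altogether 6 members were more than 2-fold lower (Rpl10a, Rpl3, Rpl12, Rpl36a, Rps18 and Rpsa), Rpl36a and Rps18 with log2 fold changes of -1.15 and -1.07 and named after their values were seen. Among all genes 2030 of 11760, 17.3%, were more than 2-fold lower.

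The stalk proteins, which bind translation factors to the large subunit, changed less than Rpl10a, Rpl3, Rpl12 and Rpsa. Their values lay around the members' median of -0.58. Rplp0 went from 660.2 ± 2.93 to 442 ± 10.9 CPM (SD, n = 3; log2 fold change -0.58 ± 0.049 SE, edgeR adjusted p = 9.9e-16). Its partners in the stalk had log2 fold changes of -0.51 ± 0.055 SE for Rplp1 and -0.70 ± 0.065 SE for Rplp2. Rpl4 and Rps2, which are also among the 5 members with the most reads, had log2 fold changes of -0.67 and -0.48, and both passed the test. All 5 members with the most reads were thus lower in IFNγ + LPS, although on the scale of the members' own sum Rplp0, Rplp1 and Rps2 turned to values of 0.0059, 0.079 and 0.11.

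A single member rose. Rps24 (ENSMUSG00000025290.16, chr14:24487125-24496959, plus strand), a small subunit protein needed for processing of the precursor of 18S rRNA and mutated in some patients with Diamond-Blackfan anaemia, measured 304, 346 and 320.4 CPM in M0 and 470.2, 454 and 459 CPM in IFNγ + LPS. All stimulated libraries lay above all resting ones (log2 fold change 0.51 ± 0.056 SE, edgeR adjusted p = 5.1e-12), but scaled by library size alone its log2 fold change was 0.043 and did not pass the test. Against the other members the rise was larger. Rps24 was the 18th member by reads in M0 and the 1st in IFNγ + LPS, and it went from 1.66% ± 0.067 to 3.56% ± 0.068 of the members' reads (SD, n = 3). Over the same libraries Rpl10a went from 1.01% ± 0.047 to 0.29% ± 0.021 and from rank 51 to rank 76, and Rpl3 from 2.16% ± 0.059 to 0.93% ± 0.032, while Rplp0 held 3.40% ± 0.076 and 3.41% ± 0.16.

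The 4 members that did not pass the test were all of the large subunit. Rpl15 (ENSMUSG00000012405.15, chr14:18267823-18271391, minus strand) measured 124, 137 and 130.2 CPM in M0 and 133, 145 and 136 CPM in IFNγ + LPS, values that overlap (log2 fold change 0.084 ± 0.059 SE, edgeR adjusted p = 0.20). Scaled by library size alone it was lower, with a log2 fold change of -0.39. The log2 fold changes of the others were 0.025 for Rpl19, -0.10 for Rpl41 and -0.12 for Rpl29, which were named after their values were seen. On the scale of the members' own sum these 4 stood above the other members save Rps24, with log2 fold changes of 0.47 for Rpl29 to 0.67 for Rpl15.

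Rps27l is a close paralogue of Rps27. Its product can replace Rps27 in the small subunit, and the gene is a known target of p53. Rps27l, which has no near-identical copy elsewhere, measured 67.4, 79.2 and 70.9 CPM in M0 and 60.3, 53.4 and 61.9 CPM in IFNγ + LPS (log2 fold change -0.31 ± 0.081 SE, edgeR adjusted p = 5.5e-04). Rps27 measured 160.4, 178 and 174 CPM in M0 and 156, 149.5 and 156 CPM in IFNγ + LPS, a smaller change, which was no longer called without M0 replicate 2, without IFNγ + LPS replicate 2 or with the correction for length and GC content (log2 fold change -0.15 ± 0.057 SE, edgeR adjusted p = 0.014). On the scale of the members' own sum both were higher, with log2 fold changes of 0.43 for Rps27 and 0.27 for Rps27l.

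Gene length, level, copies and hosted RNAs were set beside the size of the change. Across the 76 members, which share libraries and are not independent, the log2 fold change had a Pearson correlation of -0.0019 with the logarithm of transcript length and of 0.17 with the logarithm of the mean level. The share of the transcript that has a copy elsewhere had a Spearman correlation of -0.11 with the log2 fold change and of 0.41 with the level per kilobase, and the median log2 fold change was -0.64 in the 62 members with at least 50% of the transcript in a copy and -0.47 in the other 14. Introns of ribosomal protein genes often hold small nucleolar RNAs that guide the modification of rRNA. The median log2 fold change was -0.64 over the 29 members that host such RNAs, and -0.58 over the other 47.

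With DGAT1 inhibited in both arms, IFNγ + LPS again lowered most of the members, and the median decrease was smaller. The members took 2.19%, 2.16% and 2.16% of reads in the M0 + DGAT1i libraries and 1.23%, 1.09% and 1.13% in IFNγ + LPS + DGAT1i, a ratio of 0.529. In this comparison 70 members were lower and 1 was higher, where 70.6% of all genes passed the test and 35.3% of all genes were lower, and on the scale of the members' own sum 31 members passed, 15 of them higher, which is 19.7% higher and 21.1% lower against 58.5% and 17.6% of all genes. Of the 71 calls, 66 were also made in every leave-one-out fit and under every other alternative at this threshold except the members' own sum, and those of Rps24, Rps29, Rpl9, Rpl29 and Rps10 were not. The log2 fold change of Rps24, the single higher member, was 0.44, and 0.022 without a call when scaled by library size alone. The groups did not overlap in 67 members, 66 lower and 1 higher, against 72.5% of all genes, 36.5% lower and 36.1% higher. The median log2 fold change was -0.49 in the members and -0.012 in all genes.

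This comparison shares no library with the one without DGAT1i. The log2 fold changes in the 2 comparisons had a Pearson correlation of 0.895 and a Spearman correlation of 0.758 over the 76 members. In both, 68 of the 76 members were lower, against 29.7% of all genes, and Rps24 was higher, and Rpl10a, Rpl3 and Rpl12 had the largest decreases, in this order, in each, with log2 fold changes of -1.77, -1.47 and -1.20 under DGAT1i. For 59 of the 76 members the log2 fold change was higher with DGAT1i than without it, as it was for 5690 of all 11760 genes, and on the scale of the members' own sum this held for 45 members. Rpl15, which did not pass the test without DGAT1i, was lower here (log2 fold change -0.18, edgeR adjusted p = 0.0078). On the scale of the members' own sum the values of Rpl15, Rps15a and Rplp2 turned to 0.32, 0.27 and 0.21.

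**Figure D3:**
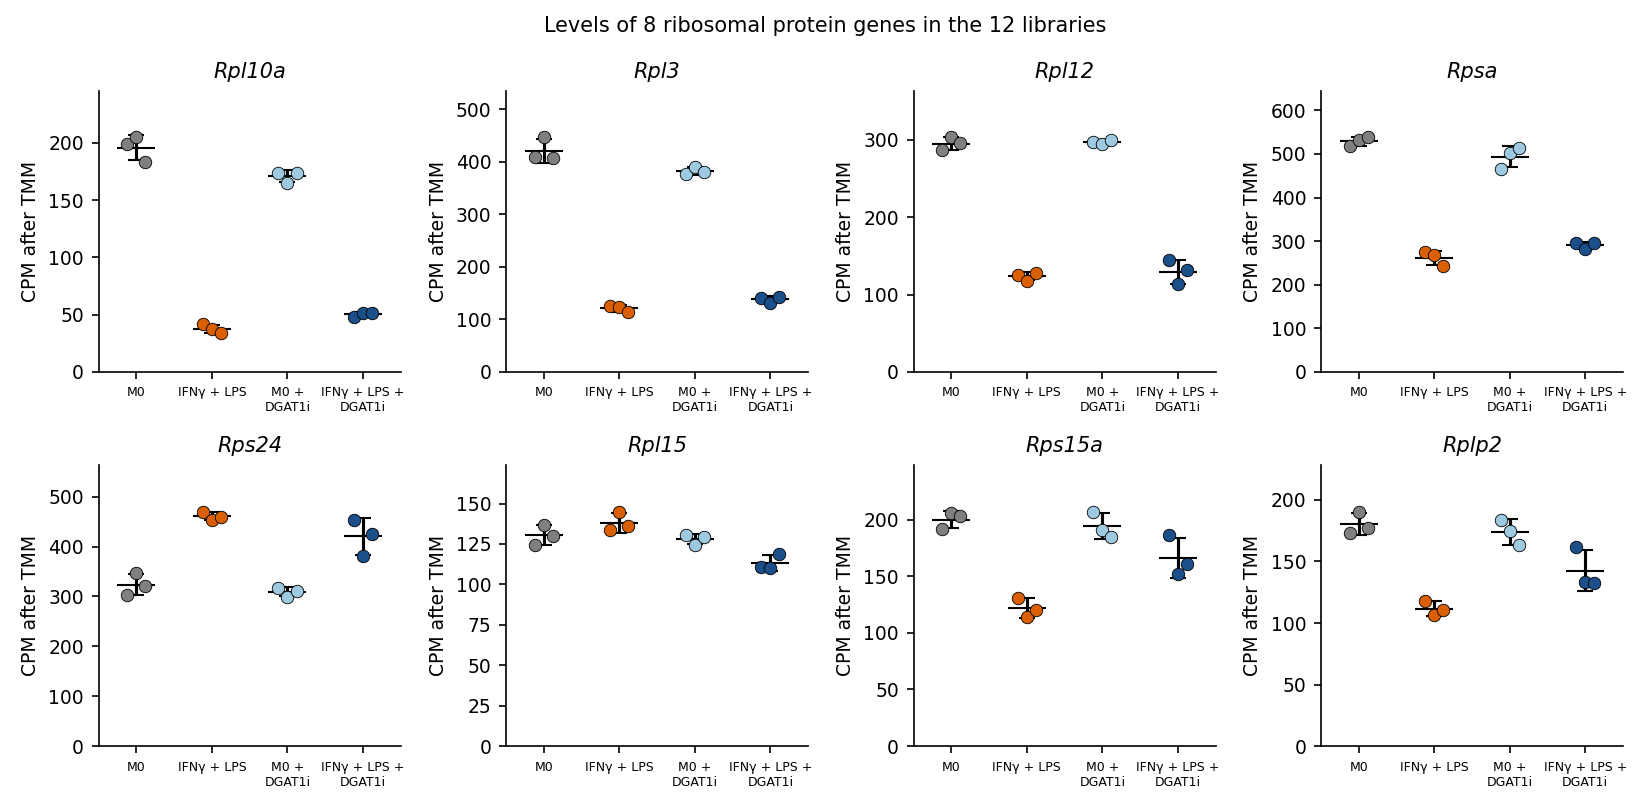
Level (CPM after TMM) of 8 ribosomal protein genes in each of the 12 libraries, with points for libraries and bars for the mean and SD of 3 libraries. Rpl10a, Rpl3, Rpl12 and Rpsa lie lower in both stimulated groups than in the resting groups, Rps24 lies higher, and Rps15a and Rplp2 lie higher in IFNγ + LPS + DGAT1i than in IFNγ + LPS.

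In resting macrophages, DGAT1i left the ribosomal protein mRNAs close to their M0 levels. The members' share was lower than in M0 in all 3 libraries, with 2.17% ± 0.019 against 2.31% ± 0.060 of reads (SD, n = 3), a ratio of 0.939, but the ratio of the summed levels after TMM was 0.977. RNAs encoded in mitochondria took 5.79% ± 0.35 of reads in M0 + DGAT1i against 4.77% ± 0.080 in M0 (SD, n = 3), and with the 20 other genes of most reads left out of the total the members' ratio was also 0.977, while without the RNAs encoded in mitochondria it was 0.949. Gene by gene, 4 of the 76 members (5.26%) passed the test, against 24.4% of all genes. The groups did not overlap in 13 members, 10 lower and 3 higher, against 37.8% of all genes, 19.9% lower and 17.9% higher. For 73 of the members the log2 fold change was under 0.15 in size, and the median was -0.054.

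The 4 members that passed were few and their calls were not firm. Rps27l was lower, with 60.1, 61.2 and 59.1 CPM in M0 + DGAT1i (log2 fold change -0.27 ± 0.077 SE, edgeR adjusted p = 0.0055). Rpl10a measured 174, 165 and 174 CPM, below all M0 libraries (log2 fold change -0.20 ± 0.056 SE, edgeR adjusted p = 0.0064). Rpl3 was slightly lower, with 376, 391 and 380.3 CPM (log2 fold change -0.14 ± 0.051 SE, edgeR adjusted p = 0.044), and Rps27 slightly higher, with 188, 195 and 184 CPM (log2 fold change 0.14 ± 0.055 SE, edgeR adjusted p = 0.048). Each of these 4 calls was lost in at least 1 leave-one-out fit, and without M0 replicate 2 or without M0 + DGAT1i replicate 2 a single member passed. The call for Rps27 was also lost with DESeq2, when scaled by library size alone and with no filter on low counts. Scaled by library size alone, 17 members passed, all lower, which is 22.4% of the members against 17.7% of all genes.

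In stimulated macrophages, some ribosomal protein mRNAs were higher and a few lower with DGAT1i, without a clear change in their sum. The members' share was 1.11% ± 0.037 in IFNγ + LPS and 1.15% ± 0.071 in IFNγ + LPS + DGAT1i (SD, n = 3), a difference within the spread between libraries, and the ratio was 0.996 without IFNγ + LPS + DGAT1i replicate 1. RNAs encoded in mitochondria took 4.85% ± 0.42 of reads with DGAT1i against 4.02% ± 0.17 without it (SD, n = 3). With these RNAs left out of the total the members' ratio was 1.04, and without the 20 other genes of most reads 1.06. Of the 76 members 18 were higher and 5 lower, together 30.3%, against 29.8% of all genes, so that the share of members that passed was near the background. With DESeq2 13 were higher and 6 lower, 17.1% and 7.89% against 10.6% and 13.2% of all genes. On the scale of the members' own sum 8 were higher and 8 lower, 10.5% each against 9.55% and 18.7% of all genes. By direction, 23.7% of the members and 13.5% of all genes were higher, and 6.58% of the members and 16.3% of all genes were lower. The groups did not overlap in 17 members, 4 lower and 13 higher, against 39.7% of all genes, 21.6% lower and 18.1% higher. The higher members comprised 12 of 31 in the small subunit and 6 of 45 in the large subunit, a difference that was not tested. The median log2 fold change was 0.076 in the members and -0.011 in all genes. Of the 23 calls, 8 were made in every leave-one-out fit, 6 of them higher (Rps15a, Rps14, Rplp2, Rpl10a, Rps21 and Rps27) and 2 lower. Without IFNγ + LPS replicate 2 14 members passed, 10 of them higher, without IFNγ + LPS replicate 3 also 14, 9 of them higher, and without IFNγ + LPS + DGAT1i replicate 1 10 were higher. Over all leave-one-out fits the lower members numbered 3 to 8.

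The neutrophil marker sum given above was higher in the same 3 libraries, 62.9 to 80.9 CPM against 15.1 to 25.4 CPM, with S100a8 and S100a9 adding the most. The granule genes Ngp, at 8.12 to 10.95 CPM against 0.21 to 1.98, and Ltf, at 2.71 to 6.76 CPM against 0.21 to 1.68, were also higher without overlap, while Elane and Ly6g were at 0 in both groups. Another granule gene, Camp, overlapped, with 0.41 to 1.04 CPM against 0.37 to 0.84. The dendritic cell marker sum was lower, 3.49 to 6.76 CPM against 8.04 to 11.1 CPM, with Xcr1 at 0.42 to 1.17 CPM against 5.03 to 6.31, while Ccr7 overlapped, with 2.26, 5.21 and 5.36 CPM against 2.52, 5.03 and 2.43. The part of other cells in the differences between these groups was not tested.

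Rps15a (ENSMUSG00000008683.16, chr7:118104372-118116188, minus strand), a small subunit protein that binds the 18S rRNA, rose most. It measured 131, 114 and 120.2 CPM in IFNγ + LPS and 186, 152 and 161 CPM in IFNγ + LPS + DGAT1i. All 3 inhibitor libraries lay above all 3 without it, and replicate 1 was the highest (log2 fold change 0.45 ± 0.067 SE, edgeR adjusted p = 5.1e-07). This level was still below the 200.1 ± 7.49 CPM of M0 (SD, n = 3).

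Rpl10a, the member that fell most with stimulation, measured 47.7, 51.2 and 51.3 CPM with DGAT1i against 41.4, 37.0 and 33.8 CPM without, again with no overlap (log2 fold change 0.42 ± 0.087 SE, edgeR adjusted p = 1.2e-04). Rplp2 (ENSMUSG00000025508.13, chr7:141447370-141451585, plus strand) measured 162, 133 and 132 CPM against 118, 106 and 110.5 CPM (log2 fold change 0.36 ± 0.069 SE, edgeR adjusted p = 5.8e-05). For its stalk partners, the log2 fold changes were 0.055 for Rplp1 (edgeR adjusted p = 0.51) and 0.077 for Rplp0 (edgeR adjusted p = 0.27). Smaller increases that passed the test were seen in Rps27 (log2 fold change 0.22), Rpl3 (0.20) and Rpsa (0.15), of which the calls for Rpl3 and Rpsa were lost without IFNγ + LPS replicate 3 and without IFNγ + LPS + DGAT1i replicate 3, and that for Rpsa also without IFNγ + LPS + DGAT1i replicate 1 and with DESeq2. On the scale of the members' own sum none of these 3 calls was made, and with no filter on low counts those for Rpl3 and Rpsa were lost.

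The decreases included those of Rpl15, Rps27l and Rpl4. Rpl15 measured 111, 110.2 and 119 CPM with DGAT1i, below its 133, 145 and 136 CPM without it (log2 fold change -0.29 ± 0.062 SE, edgeR adjusted p = 2.4e-04). Exons of Nkiras1 on the opposite strand overlap those of Rpl15, and the sources differ on whether the library kit kept strand, so the count of Rpl15 is uncertain. Rpl4 measured 364, 341 and 329 CPM against 415, 399.6 and 379.8 CPM (log2 fold change -0.21 ± 0.053 SE, edgeR adjusted p = 0.0019). Rps27l measured 56.9, 43.1 and 44.7 CPM against 60.3, 53.4 and 61.9 CPM, a decrease like that in M0, though the call was lost in 4 leave-one-out fits (log2 fold change -0.27 ± 0.091 SE, edgeR adjusted p = 0.018). Rps24, which rose with stimulation, had a log2 fold change of -0.13 (edgeR adjusted p = 0.064), and Rpl12 one of 0.069 (edgeR adjusted p = 0.47).

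Whether DGAT1i acted differently in the 2 states was tested as the difference of its responses in one fit of all 12 libraries. For 15 members, 19.7%, this difference passed the test, against 18.5% of all genes. In 13 of them the response was more positive in IFNγ + LPS than in M0, and in Rpl15 and Rpl4 it was more negative. By direction these are 17.1% of the members against 8.66% of all genes and 2.63% against 9.8%. The smallest p-values were those of Rpl10a (difference on the log2 scale 0.62 ± 0.10 SE, edgeR adjusted p = 8.3e-06), Rps15a (0.50 ± 0.090 SE, edgeR adjusted p = 4.6e-05) and Rplp2 (0.41 ± 0.092 SE, edgeR adjusted p = 7.9e-04). Rpl10a was lower with DGAT1i in M0 and higher with it in IFNγ + LPS. The differences were 0.33 for Rpl3, 0.25 for Rpsa, -0.25 for Rpl4 and -0.26 for Rpl15. Of the 15 calls, 9 were made in every leave-one-out fit, and on the scale of the members' own sum 7 differences were more positive and 3 more negative, 9.21% and 3.95% against 5.48% and 12.9% of all genes.

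**Figure D4:**
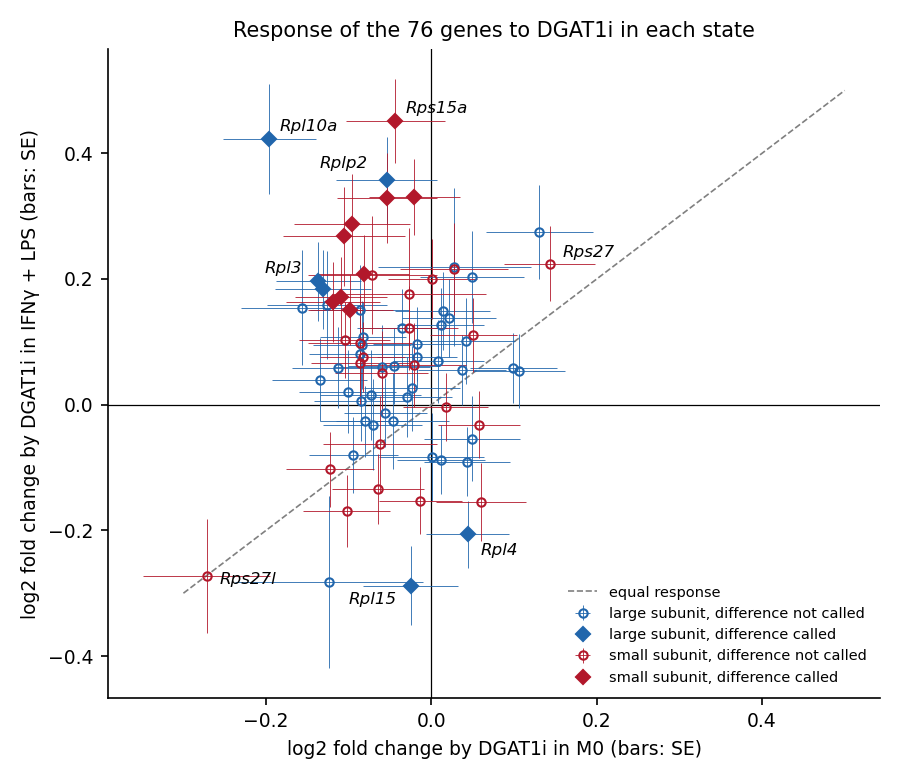
Log2 fold change by DGAT1i in IFNγ + LPS (vertical axis) against that in M0 (horizontal axis) for the 76 genes, with SE bars; blue marks the large and red the small subunit, filled diamonds the 15 genes whose 2 responses differed at an adjusted p under 0.05, and the dashed line equal responses. The axes share no library; Rpl10a lies left of and above 0, and Rpl15 and Rpl4 lie below the line.

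Other genes of the ribosome's life cycle were looked at as lists chosen by function. The counts below stand against all genes, of which 37.1% were higher and 36.2% lower in IFNγ + LPS by TMM, 19.9% and 59.5% by library size alone and 62.2% and 18.01% on the scale of the members' sum. Of 7 genes for ribosomal proteins or ribosome-bound proteins outside the symbol rule, 5 were lower and 1 higher in IFNγ + LPS by TMM, and 2 were lower and 2 higher on the scale of the members' sum (TMM median log2 fold change -0.56). With 1 library left out, 4 to 5 of them were lower and 0 to 1 higher by TMM. Rack1, the scaffold on the small subunit, went from 599 ± 18.7 to 333 ± 8.77 CPM (SD, n = 3; log2 fold change -0.84 ± 0.051 SE, edgeR adjusted p = 1.1e-21), and Rps3a1 had a log2 fold change of -0.56. Rpl22l1, the paralogue of Rpl22, fell more, from 35.8 ± 4.81 to 11.2 ± 2.15 CPM (SD, n = 3; log2 fold change -1.68 ± 0.15 SE, edgeR adjusted p = 1.0e-11).

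Of 16 other mRNAs known to carry a TOP stretch, 14 were lower and 1 higher, with a median log2 fold change of -0.54, near that of the ribosomal proteins, although on the scale of the members' sum 7 were higher and 4 lower. Eef1a1, the elongation factor that brings tRNA to the ribosome, went from 4925 ± 64.0 to 2496 ± 179 CPM (SD, n = 3; log2 fold change -0.98 ± 0.053 SE, edgeR adjusted p = 7.0e-24). The histone chaperone Nap1l1 and the nucleolar protein Npm1 had log2 fold changes of -1.05 and -0.90. Genes for translation initiation factors stood at a median of 0.074, with 13 of 29 higher and 7 lower by TMM, but 4 higher and 21 lower by library size alone. Eif4g3, a scaffold of the cap-binding complex, had a log2 fold change of 1.31, Eif1 one of 0.98 and Eif5 one of 0.94, all past the test.

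Ribosome assembly factors were lower in 26 and higher in 5 of 48, with a median of -0.36 by TMM, while 42 were lower by library size alone and 23 higher on the scale of the members' sum. Utp20, needed for processing of pre-rRNA, went from 78.0 ± 1.56 to 32.0 ± 4.63 CPM (SD, n = 3; log2 fold change -1.29 ± 0.093 SE, edgeR adjusted p = 3.3e-17), and the box C/D snoRNP protein Nop56 had a log2 fold change of -0.97. Sbds, which readies the new large subunit for translation, was higher, with a log2 fold change of 0.92. Genes of RNA polymerase I, which transcribes the rRNA, and its factors were split by TMM, 4 higher and 4 lower of 14, and 10 were lower by library size alone, while 2 were higher by TMM without M0 replicate 1, M0 replicate 3 or IFNγ + LPS replicate 3. By TMM, Polr1b had a log2 fold change of -1.05, Cd3eap one of -0.72 and Taf1d one of -0.62. Ribosome quality control genes were higher in 4 and lower in 1 of 8 by TMM, but lower in 4 and higher in 2 by library size alone, with TMM log2 fold changes of 0.87 for Ascc3, 0.92 for Nufip1 and 0.58 for Edf1, of which the last fell to 0.11 and lost its call by library size alone.

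Some regulators of ribosome production changed many-fold. Myc, the transcription factor that promotes ribosome production, fell from 34.3 ± 3.35 CPM, 222 to 287 reads a library, to 5 reads in the 3 IFNγ + LPS libraries together (edgeR adjusted p = 1.3e-29). Its partner Max had a log2 fold change of 1.49 and the Max-binding repressor Mxd4 one of -3.14. In the Myc network as a whole 5 of 9 genes were higher and 3 lower by TMM, and 3 higher and 4 lower by library size alone. The mTORC1 pathway was split by TMM, 11 higher and 9 lower of 31, and by library size alone 20 were lower and 3 higher. The shares by TMM were near those of all genes. Larp1, which holds TOP mRNAs back from translation and stabilises them, went from 126 ± 2.47 to 329.7 ± 10.6 CPM (SD, n = 3; log2 fold change 1.38 ± 0.053 SE, edgeR adjusted p = 1.1e-30). Sesn1, an inhibitor of mTORC1 in leucine starvation, went from 147 ± 1.58 to 6.53 ± 1.01 CPM (SD, n = 3; log2 fold change -4.48 ± 0.10 SE, edgeR adjusted p = 3.1e-41), and the mTOR inhibitor Deptor from 11.2 ± 0.290 CPM to 2 reads in the 3 stimulated libraries together. These are mRNA levels, and neither kinase activity nor translation was measured.

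**Figure D5:**
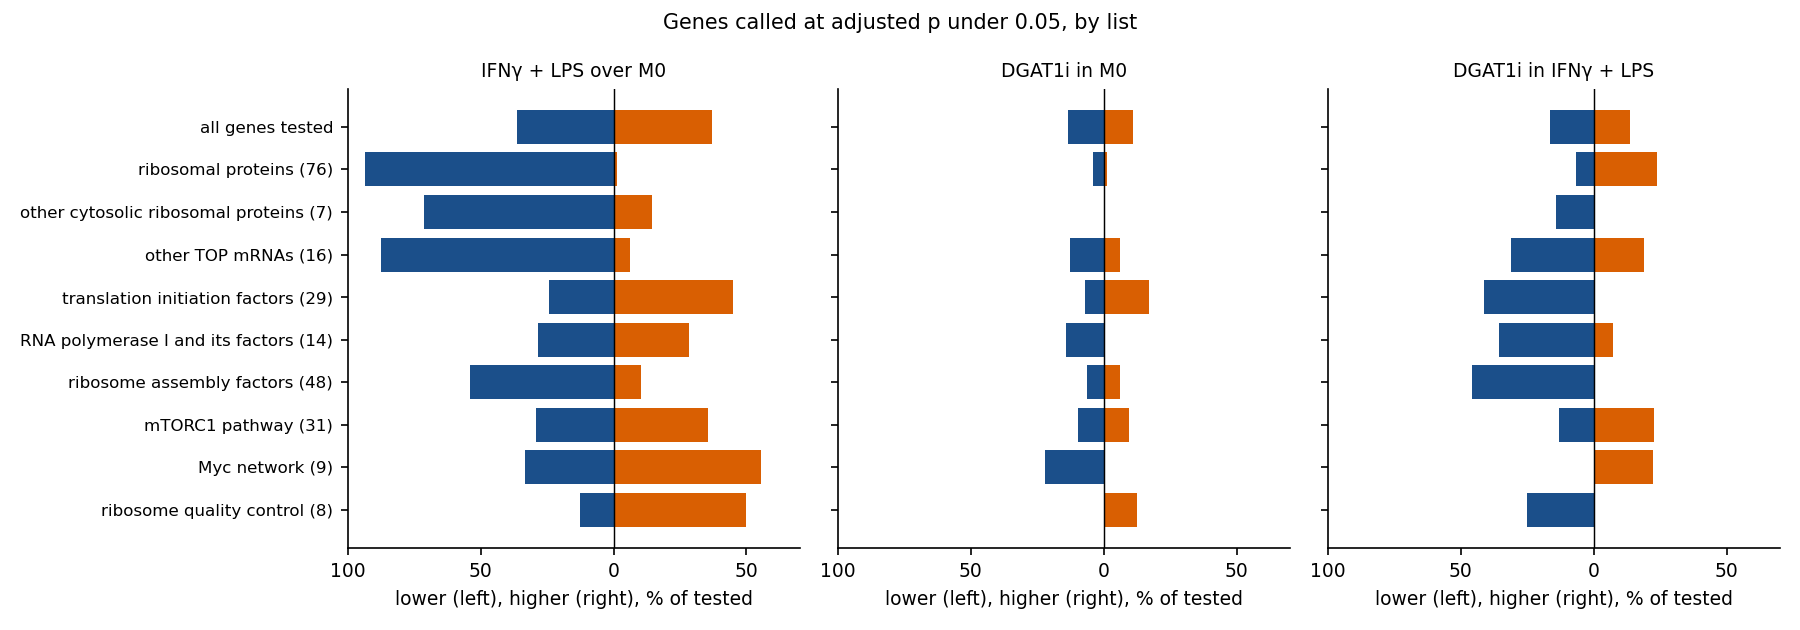
Share of the genes tested that were lower (blue, to the left) or higher (orange, to the right) at an adjusted p under 0.05, in percent on the horizontal axis, for all 11760 genes, the 76 ribosomal proteins and 8 related lists with their numbers of genes. The left panel shows IFNγ + LPS over M0, where the ribosomal proteins and other TOP mRNAs lie far to the left; the middle and right panels show DGAT1i in M0 and in IFNγ + LPS, where no assembly or initiation factor lies to the right in the stimulated state.

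Among all genes 13.5% were higher and 16.3% lower with DGAT1i in stimulated macrophages. There, the assembly and initiation factors that passed the test were all lower, also when scaled by library size alone or by the members' sum, whereas the ribosomal proteins that passed were 18 higher and 5 lower by TMM and 8 higher and 8 lower by the members' sum. Of the 48 assembly factors 22 were lower and 0 higher, with a median log2 fold change of -0.37, and in the test of the difference 17 responses were more negative in IFNγ + LPS than in M0 and 0 more positive, by edgeR's quasi-likelihood test. Ddx21, an RNA helicase in pre-rRNA processing, measured 88.5, 85.5 and 92.9 CPM in IFNγ + LPS and 64.9, 58.9 and 55.7 CPM with DGAT1i (log2 fold change -0.57 ± 0.077 SE, edgeR adjusted p = 2.6e-08), and Mybbp1a had a log2 fold change of -0.53. Of the 29 initiation factors 12 were lower and 0 higher, among them Eif3b with a log2 fold change of -0.40 and Eif4g1 with -0.24. Of the 14 polymerase I genes 5 were lower and 1 higher, with -0.51 for Ubtf and -0.56 for Polr1a, and 3 were lower without IFNγ + LPS replicate 1, without IFNγ + LPS replicate 3 or without IFNγ + LPS + DGAT1i replicate 3. The single higher gene was not called in 10 of the 12 leave-one-out fits.

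The TOP mRNAs outside the ribosome were mixed, 3 higher and 5 lower of 16, or 3 lower without IFNγ + LPS + DGAT1i replicate 3, with Hnrnpa1 at -0.62 and Npm1 at -0.52. Of the 7 other ribosomal proteins, Rpl7l1 alone passed the test, with a log2 fold change of -0.20, a call lost under 7 alternatives, among them DESeq2 and leaving out IFNγ + LPS replicate 1, IFNγ + LPS replicate 3 or IFNγ + LPS + DGAT1i replicate 2. In the same list Fau had a log2 fold change of 0.14 (edgeR adjusted p = 0.06). In the mTORC1 pathway 7 were higher and 4 lower of 31, with 0.48 for Depdc5 and -0.25 for Lamtor1, the lower share being near that of all genes. Without IFNγ + LPS replicate 2 these counts were 4 and 1, and 2 were lower without IFNγ + LPS replicate 1 or 3 or without any one of the IFNγ + LPS + DGAT1i libraries. In the Myc network 0 of 9 were lower, or up to 2 with 1 library left out, and 2 were higher. These were Mxi1, which measured 14.9, 14.6 and 12.1 CPM without and 44.0, 41.4 and 40.6 CPM with DGAT1i (log2 fold change 1.60 ± 0.12 SE, edgeR adjusted p = 7.9e-17), and Mxd1 (log2 fold change 0.45), both antagonists of Myc. The call for Mxd1 was lost by the members' sum, without IFNγ + LPS replicate 3 and without IFNγ + LPS + DGAT1i replicate 2. Myc itself remained near 0, with 9 reads in the 3 libraries together. Of the 8 quality control genes 2 were lower, Ascc3 and Edf1, with log2 fold changes of -0.18 and -0.19. The call for Ascc3 was lost without IFNγ + LPS replicate 2, and that for Edf1 with DESeq2, with the compared groups alone, without IFNγ + LPS replicate 3 and without IFNγ + LPS + DGAT1i replicate 2 or 3.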

How the data were processed

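RNA of 12 bone marrow-derived macrophage samples, 3 libraries in each of 4 groups, was sequenced, and the authors deposited a table of raw read counts per gene. The submitters' processing notes name the genome build GRCm38 and DESeq2, whose version, like the aligner, counter and annotation release, is not given in the sources used here. The labels name a library kit that does not mark strand and the study's methods a stranded one, so reads of overlapping antisense genes are treated as uncertain. Of the 3 M0 + DGAT1i samples, 2 carry a compound name other than T863 in one label field, and their group follows the field that gives T863. M0 labels give no 18 h.

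Symbols and positions came from GENCODE M21 by Ensembl identifier, which matched 47310 of 47937 genes. The members, lists and tests were chosen with earlier results of these data known. Counts were filtered with filterByExpr, scaled by TMM and tested with edgeR 4.0.16 (glmQLFit, robust, and glmQLFTest, two-sided; R 4.3.3), all 12 libraries in 1 fit with 1 mean per group, and p-values were adjusted by Benjamini-Hochberg over 11760 genes. The fit was tested on simulated data. Depth was 4996014 to 6621671 reads a library, and replicates of a group differed by more than counting noise. Levels are CPM on TMM-scaled library sizes. Levels per kilobase used the shortest principal transcript. Copies were found with BLAST 2.17.0, at 95% identity over 100 bases.

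Named members were the 5 with the highest mean CPM, the 3 called members with the largest increase and decrease in each simple comparison, the 3 with the smallest p for the difference, the stalk proteins, Rpsa, and paralogues with a symbol ending in l together with their namesake. Of each list, the 3 genes with the smallest p in IFNγ + LPS and the 2 with the smallest p for DGAT1i in IFNγ + LPS were named. Alternatives were RLE factors, library size alone, TMM without the members, scaling by the members' sum, no filter, a mean CPM of at least 1, DESeq2 1.42.0, the compared groups alone, an adjusted p under 0.1, a replicate block, a correction for length and GC content, this correction with the block, and leaving out each library. For the share of reads, the total was also taken without the 20 other genes of most reads, without RNAs encoded in mitochondria, and with other ribosomal protein genes and pseudogenes counted in. Results for 1 member are counted in the totals but not reported by name here.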

Additional observations from a re-analysis of the deposited data

Results flagged for a closer look

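The response to DGAT1i differed between M0 and IFNγ + LPS in 15 of the 76 ribosomal protein genes, by edgeR's test of the difference of the responses, near the 18.5% of all genes for which it did so. Among the named members the log2 difference, IFNγ + LPS minus M0, was 0.62 for Rpl10a (edgeR adjusted p = 8.3e-06), 0.50 for Rps15a (edgeR adjusted p = 4.6e-05), 0.41 for Rplp2 (edgeR adjusted p = 7.9e-04), 0.33 for Rpl3 (edgeR adjusted p = 0.0017) and 0.25 for Rpsa (edgeR adjusted p = 0.014). It was -0.25 for Rpl4 (edgeR adjusted p = 0.010) and -0.26 for Rpl15 (edgeR adjusted p = 0.021). The call for Rpl3 was lost on the scale of the members' sum. The call for Rpsa was lost on that scale, with no filter on low counts, without IFNγ + LPS replicate 3 and without M0 + DGAT1i replicate 1, and that for Rpl15 by library size alone, with DESeq2, without M0 replicate 1, without IFNγ + LPS replicate 2 and without IFNγ + LPS + DGAT1i replicate 2.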

How the results depend on the processing

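The number of members changed by IFNγ + LPS was 72, and 39 when libraries were scaled by the members' own sum. Under DGAT1i it was 71, and 31 on that scale. The median log2 fold change of the members turned to 0.0059 and 0.0095 on that scale, as its construction implies. Of the 76 members 39 stood above 0 there, and among the named genes the log2 fold changes by IFNγ + LPS that turned positive were 0.0059 for Rplp0, 0.079 for Rplp1, 0.11 for Rps2, 0.43 for Rps27, 0.27 for Rps27l and 0.022 for Rps3a1. Under DGAT1i 40 members stood above 0, and those of the named genes that turned were 0.014 for Rplp0, 0.0094 for Rplp1, 0.43 for Rps27, 0.18 for Rps27l, 0.27 for Rps15a, 0.21 for Rplp2 and 0.32 for Rpl15. Scaled by library size alone, Rpl15 in IFNγ + LPS turned to -0.39. The 4 members changed by DGAT1i in M0 became 17 by library size alone, 2 by the members' sum, 2 without a filter, 7 at an adjusted p under 0.1 and 7 with the length and GC correction and replicate block. The cause of these 5 moves was not tested. The ratio of the members' reads became 0.667 for IFNγ + LPS over M0, 0.708 for the same under DGAT1i and 0.977 for M0 + DGAT1i over M0 when taken from summed CPM after TMM, and the last was 0.977 also without the 20 other genes of most reads. Leaving out each library in turn gave 71 to 74 changed members for IFNγ + LPS, 69 to 71 for the same under DGAT1i, 1 to 4 for DGAT1i in M0, 14 to 25 for DGAT1i in IFNγ + LPS and 12 to 20 for the difference, and share ratios of 0.473 to 0.489, 0.511 to 0.542, 0.931 to 0.953 and 0.996 to 1.06 in the order of the shares above, the last for IFNγ + LPS + DGAT1i over IFNγ + LPS. The count of 14 arose without IFNγ + LPS replicate 2 and without IFNγ + LPS replicate 3. Same-numbered libraries had correlations of deviations of -0.022 to 0.069, with 0 of 12 over 0.1, so the numbers were not taken to pair libraries, and the replicate block gave 72, 71, 4, 24 and 16 changed members in the same order. A fit of the compared groups alone was not possible for the difference, which uses all 4. Of 4882 other values under alternatives (single genes, lists and medians), 4500 kept their direction and side of the threshold or moved by less than the limit for their kind. The member with the fewest reads held 4496 over the 12 libraries, and the chi-square per gene between replicates was 1.98 to 4.23, above the 1 that counting error alone gives.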
